A study of Mus musculus with 11 samples.

Results

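The genes described here are those of mitosis and cytokinesis, 42 genes chosen by name from the known machinery of cell division. Earlier results of these data were known when they were chosen. For each gene the probe set (the group of array probes read as 1 value) that names that gene and no other was taken from the deposited table, and where a gene had several, the 1 with the highest average on the 9 arrays of whole stomach. This gave 41 of the 42 genes, each with 1 probe set, among 22180 genes in all, and Ccnb1 had no such probe set and is not analysed here. The members were sorted by role into 9 kinases, 6 cyclins and regulators of entry and exit, 5 genes of chromosomes and the passenger complex, 6 of the kinetochore and centromere, 7 kinesins, 4 of the spindle and 4 of cytokinesis.

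Total RNA of adult C57Bl/6 mouse stomach was measured on Affymetrix arrays. In the combination group (2 arrays) the mice had rapamycin at 0.6 mg per 20 g of body weight for 10 days and tamoxifen at 5 mg per 20 g for 3 days, in the tamoxifen group (2 arrays) tamoxifen alone, in the rapamycin group (3 arrays) rapamycin alone, and in the vehicle group (2 arrays) sunflower oil, all by daily injection into the peritoneum. Rapamycin inhibits the growth-controlling kinase complex mTORC1, and tamoxifen at high dose injures the acid-secreting parietal cells of the mouse stomach. The remaining 2 arrays held parietal cells isolated from C57Bl/6 stomach and all other cells of the stomach, 1 array each. The labels call the whole-stomach arrays biological replicates but do not say whether each array is 1 mouse, so p-values measure the spread between these samples. The labels give no vehicle for rapamycin, and oil stomachs are the only untreated ones.

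A dividing cell condenses its duplicated chromosomes, attaches each sister to microtubules of the spindle through the kinetochore, holds at a checkpoint until all are attached, separates them and then pinches in between the daughters. Cdk1 bound to cyclins starts this sequence, the Aurora and Polo kinases steer it, kinesin motors move microtubules and chromosomes, and the anaphase-promoting complex ends it by marking cyclins for destruction. Most of these genes are transcribed late in the cell cycle, and in the stomach their RNA is known chiefly from the proliferating progenitors of the gland isthmus. Fully differentiated parietal cells normally do not divide.

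Late cell cycle genes are known to share promoter elements: the cell cycle genes homology region (CHR), bound by the DREAM and MuvB complexes, and CCAAT boxes, bound by NF-Y. RefSeq promoter windows of build GRCm38.p6, from 250 bases before to 50 after an annotated start, were matched by symbol for 33 of the 41 measured genes, with 35 windows in all. The 6 windows printed here show how these elements sit in called genes of different roles, with Birc5 as a strongly changed gene that has neither. They are Cdk1 at chr10:69352863-69353162 on the minus strand, Ube2c at chr2:164769679-164769978 on the plus strand, Top2a at chr11:99024140-99024439 on the minus strand, Kif11 at chr19:37376132-37376431 on the plus strand, Racgap1 at chr15:99651607-99651906 on the minus strand and Birc5 at chr11:117848987-117849286 on the plus strand. Each is written 5′ to 3′ on the strand of its gene, and capitals mark the CHR letters TTTGAA or TTCGAA and the CCAAT letters, read on both strands.
Cdk1: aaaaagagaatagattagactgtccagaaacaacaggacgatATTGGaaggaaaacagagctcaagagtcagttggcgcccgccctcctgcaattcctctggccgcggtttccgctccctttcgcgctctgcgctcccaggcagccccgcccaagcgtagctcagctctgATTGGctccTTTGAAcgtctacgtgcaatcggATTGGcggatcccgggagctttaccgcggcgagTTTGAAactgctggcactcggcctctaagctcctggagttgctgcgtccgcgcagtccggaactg
Ube2c: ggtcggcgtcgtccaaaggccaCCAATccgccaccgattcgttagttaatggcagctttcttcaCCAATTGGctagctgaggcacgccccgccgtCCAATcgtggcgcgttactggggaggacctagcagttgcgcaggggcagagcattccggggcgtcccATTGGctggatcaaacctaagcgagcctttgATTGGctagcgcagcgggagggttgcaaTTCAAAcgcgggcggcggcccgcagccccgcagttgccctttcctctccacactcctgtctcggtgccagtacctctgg
Top2a: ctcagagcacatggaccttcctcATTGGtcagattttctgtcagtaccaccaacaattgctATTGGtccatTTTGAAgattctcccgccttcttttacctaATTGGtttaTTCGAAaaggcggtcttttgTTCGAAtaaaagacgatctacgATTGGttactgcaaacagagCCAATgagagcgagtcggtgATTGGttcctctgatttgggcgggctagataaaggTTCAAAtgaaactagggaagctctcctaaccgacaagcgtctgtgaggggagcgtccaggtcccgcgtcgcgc
Kif11: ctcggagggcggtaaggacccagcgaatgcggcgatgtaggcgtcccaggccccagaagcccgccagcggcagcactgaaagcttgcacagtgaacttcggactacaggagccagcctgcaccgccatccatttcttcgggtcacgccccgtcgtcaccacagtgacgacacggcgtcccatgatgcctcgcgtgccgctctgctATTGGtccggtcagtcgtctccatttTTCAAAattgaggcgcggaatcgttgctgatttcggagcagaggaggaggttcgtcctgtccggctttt
Racgap1: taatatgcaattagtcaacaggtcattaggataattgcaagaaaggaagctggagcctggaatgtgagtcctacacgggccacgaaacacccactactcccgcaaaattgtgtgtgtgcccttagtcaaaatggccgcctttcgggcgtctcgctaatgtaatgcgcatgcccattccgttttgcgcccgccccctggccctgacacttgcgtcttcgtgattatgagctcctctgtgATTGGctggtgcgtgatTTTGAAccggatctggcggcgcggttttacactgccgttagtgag
Birc5: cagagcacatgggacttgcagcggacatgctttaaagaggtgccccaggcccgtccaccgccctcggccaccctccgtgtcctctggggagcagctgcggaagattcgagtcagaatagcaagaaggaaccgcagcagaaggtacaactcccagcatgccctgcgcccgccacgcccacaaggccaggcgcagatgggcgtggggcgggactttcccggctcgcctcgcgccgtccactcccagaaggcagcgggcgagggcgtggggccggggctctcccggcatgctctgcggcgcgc

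CHR letters stood in 30 of the 35 windows (85.7%), against 19.2% of all 32851 promoter windows in the RefSeq table. CCAAT letters stood in 27 windows (77.1%), against 37.4% of all. Both were present in 26 windows (74.3%), against 7.53% of all, and at least 2 CCAAT matches in 18 (51.4%), against 11.7% of all. Matches may overlap: in Ube2c a pair of CCAAT matches on opposite strands shares letters. The E2F letters TTTCCCGC, TTTGGCGC, TTTGCCGC and TTTCGCGC, searched on both strands, were in 2 windows (5.71%), against 2.27% of all. A match is only a run of letters, and no binding was measured.

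In 27 windows (77.1%), against 5.31% of all, a CHR match lay within 50 bases of the annotated start, a distance chosen after the positions were seen. In Cdk1 the CHR letters began 71 and 15 bases before the start, in Ube2c 29 bases and in Kif11 19 bases before it, and in Racgap1 6 bases after it. By gene, 24 of 33 had both elements, 5 had no CHR letters, and 4 had neither (Birc5, Melk, Nuf2 and Nusap1). Those 4 genes changed with tamoxifen by log2 1.30, 1.02, 0.93 and 0.71, in the order named. All members, these 4 included, ranged from 0.51 to 1.32. Whether the changes differ with the presence of these letters was not tested.

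**Figure D1:**
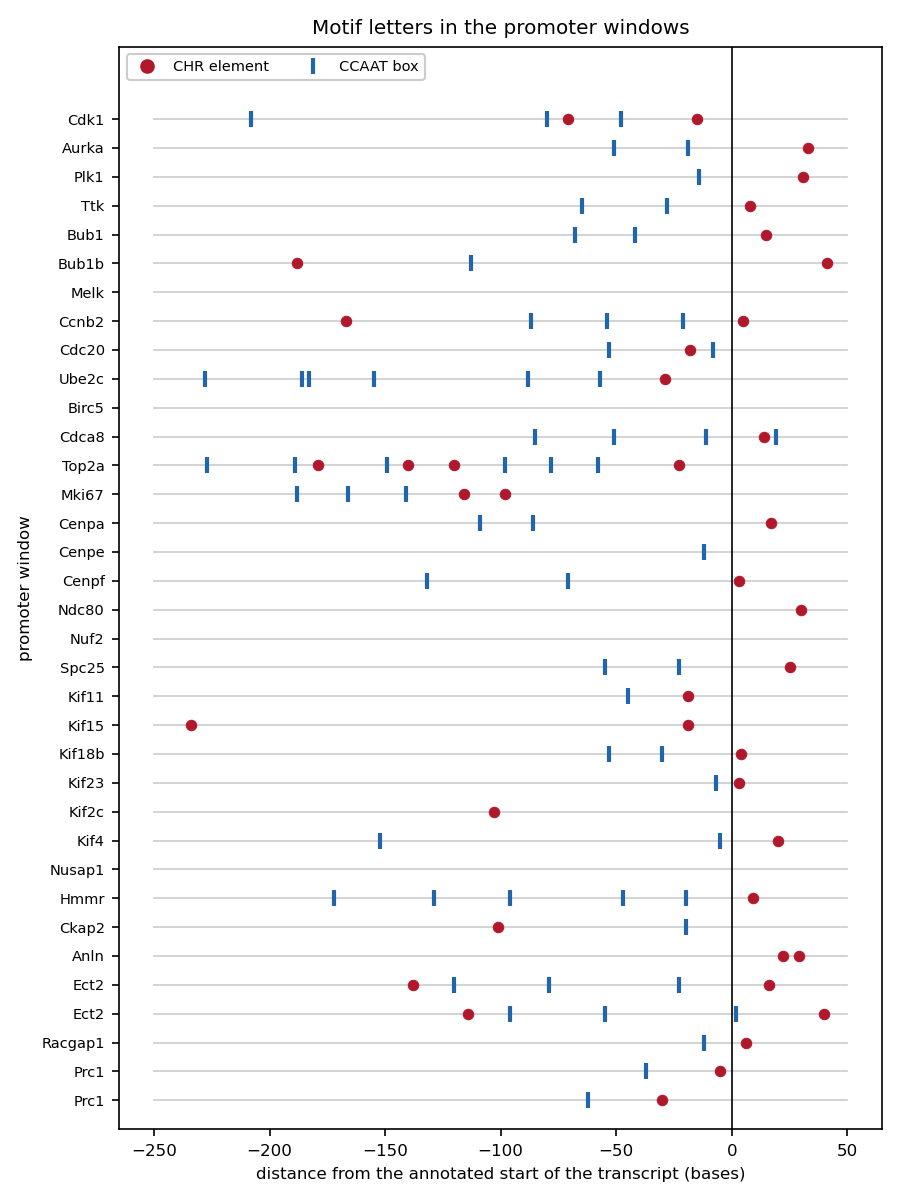
Positions of CHR letters (circles) and CCAAT letters (bars) in the 35 promoter windows of 33 member genes, as the distance in bases from the annotated start (0) to the first letter of each match. CHR letters lie within 50 bases of the start in 27 windows, mostly downstream of the nearest CCAAT letters.

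The 9 whole-stomach arrays shared a scale, with medians over all 41345 probe sets between 4.95 and 5.09 on the log2 scale. The fraction arrays had medians of 3.67 and 3.68, so they were compared only with each other. Levels of different genes are not compared, since each probe set has its own brightness. Tests were made with limma over all 22180 genes, a gene counted as called when its p, adjusted by Benjamini-Hochberg, was under 0.05, and errors after ± are standard errors of a log2 change unless stated otherwise. In bulk tissue, fewer dividing cells and less RNA of these genes per cell cannot be told apart.

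Division genes stood highest in tamoxifen stomachs, next in combination stomachs, then in vehicle stomachs, and lowest in rapamycin stomachs. Averaged over the 41 genes, the log2 level was 7.50 and 7.398 in combination arrays, 7.90 and 8.003 in tamoxifen arrays, 6.55, 6.41 and 6.41 in rapamycin arrays, and 6.997 and 6.995 in vehicle arrays. The arrays of each group lay closer to each other than to those of any other group. The order of the 4 group means was the same for 39 of the 41 genes, an order that 7.42% of all genes had. The exceptions were Foxm1, lowest in vehicle stomachs, and Mki67, slightly lower in combination than in vehicle stomachs.

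**Figure D2:**
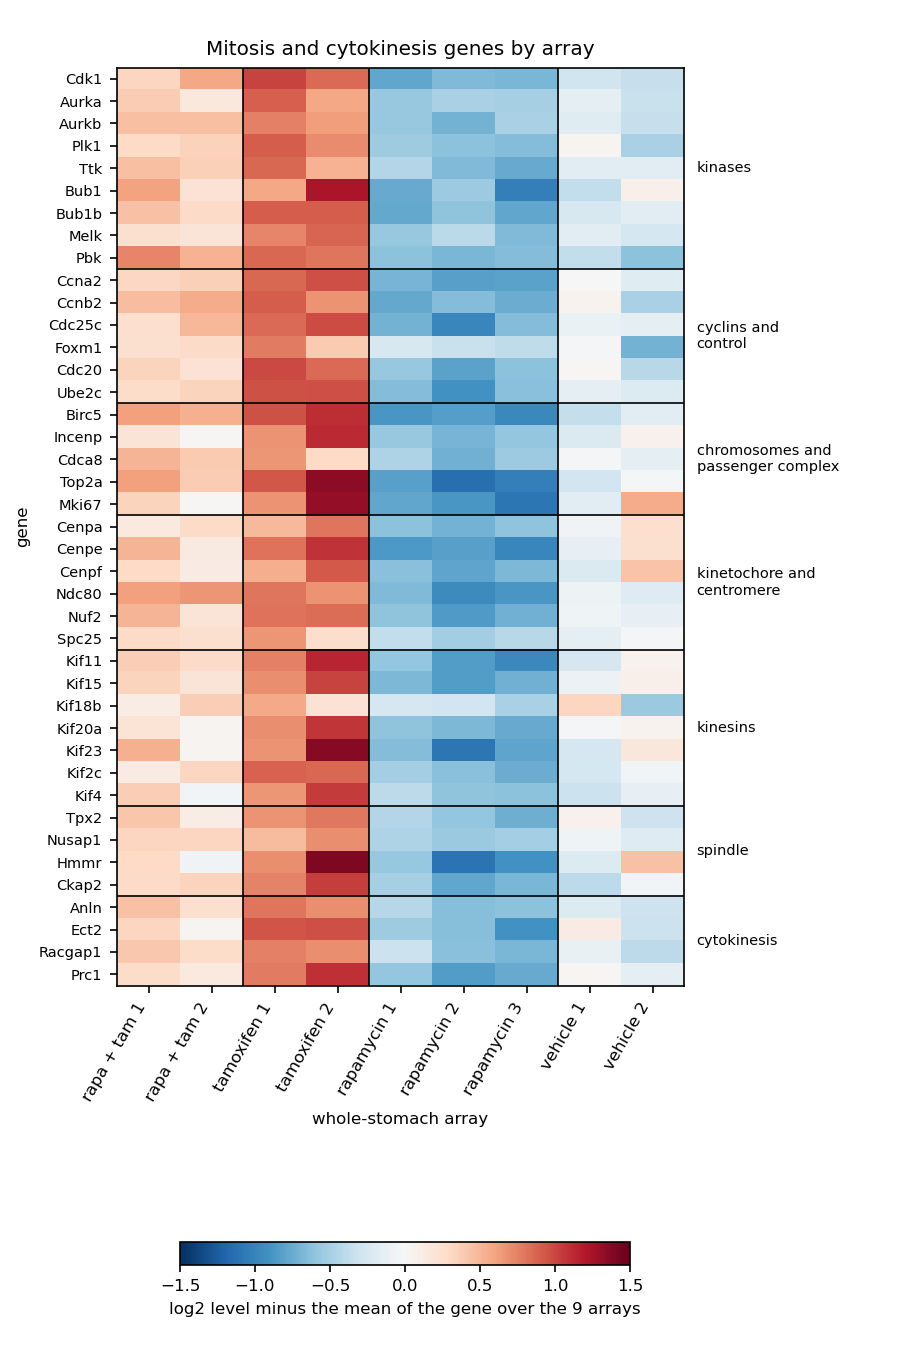
Log2 level of each of the 41 genes in the 9 whole-stomach arrays, as the difference from the mean of that gene over the arrays (red above, blue below), with genes sorted by role and arrays by group (rapa + tam is rapamycin plus tamoxifen). Nearly all genes are red in tamoxifen arrays, paler red in rapamycin plus tamoxifen arrays, blue in rapamycin arrays and near white in vehicle arrays.

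With tamoxifen, most division genes rose. Tamoxifen against vehicle gave 29 of the 41 genes called as rising and 0 as falling, at a background of 0.933% of all genes called as rising, with a median log2 change of 1.003 (2.004-fold) over the members and -0.02 over all genes. In 40 of the 41 genes both tamoxifen arrays lay above both vehicle arrays, against 13.4% of all genes, and Kif18b was the exception. In rapamycin-treated mice, the combination against rapamycin gave 33 genes called as rising and 0 as falling, at a background of 1.13%, with a median of 0.98. All 41 genes had both combination arrays above the 3 rapamycin arrays, against 18.7% of all genes.

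Of these calls 27 were shared, which is 93.1% of the calls of tamoxifen against vehicle and 81.8% of those of the combination against rapamycin. These comparisons have no array in common, but the fit gave both the same estimate of spread for each gene. Their calls are therefore not independent. Incenp and Kif4 were called only without rapamycin, and Bub1, Cdca8, Cenpa, Cenpe, Spc25 and Tpx2 only with it, but being called in 1 of them does not show that the changes differ. Foxm1, Mki67, Cenpf, Kif18b, Kif23 and Hmmr were called in neither. When tamoxifen was averaged over rapamycin, 40 genes were called as rising (median 0.97), at a background of 3.24%, and Kif18b alone was not, at 0.55 ± 0.18 (adjusted p = 0.137).

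The 29 calls of tamoxifen against vehicle became 10 and 8 without vehicle array 1 or 2, 15 and 9 without tamoxifen array 1 or 2, 18, 16 and 14 without rapamycin array 1, 2 or 3, and 17 without either combination array, and a fit of only these groups gave 0. The 33 calls of the combination against rapamycin became 3 and 6 without combination array 1 or 2 and 13 and 16 without rapamycin array 2 or 3, while the median log2 change stayed between 0.916 and 1.045 in all these refits of both comparisons. Called whichever single array was left out were Cdk1, Bub1b, Pbk, Ube2c and Birc5 for tamoxifen against vehicle (5 genes), Birc5 and Ndc80 for the combination against rapamycin (2 genes), and 34 genes for tamoxifen averaged over rapamycin.

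**Figure D3:**
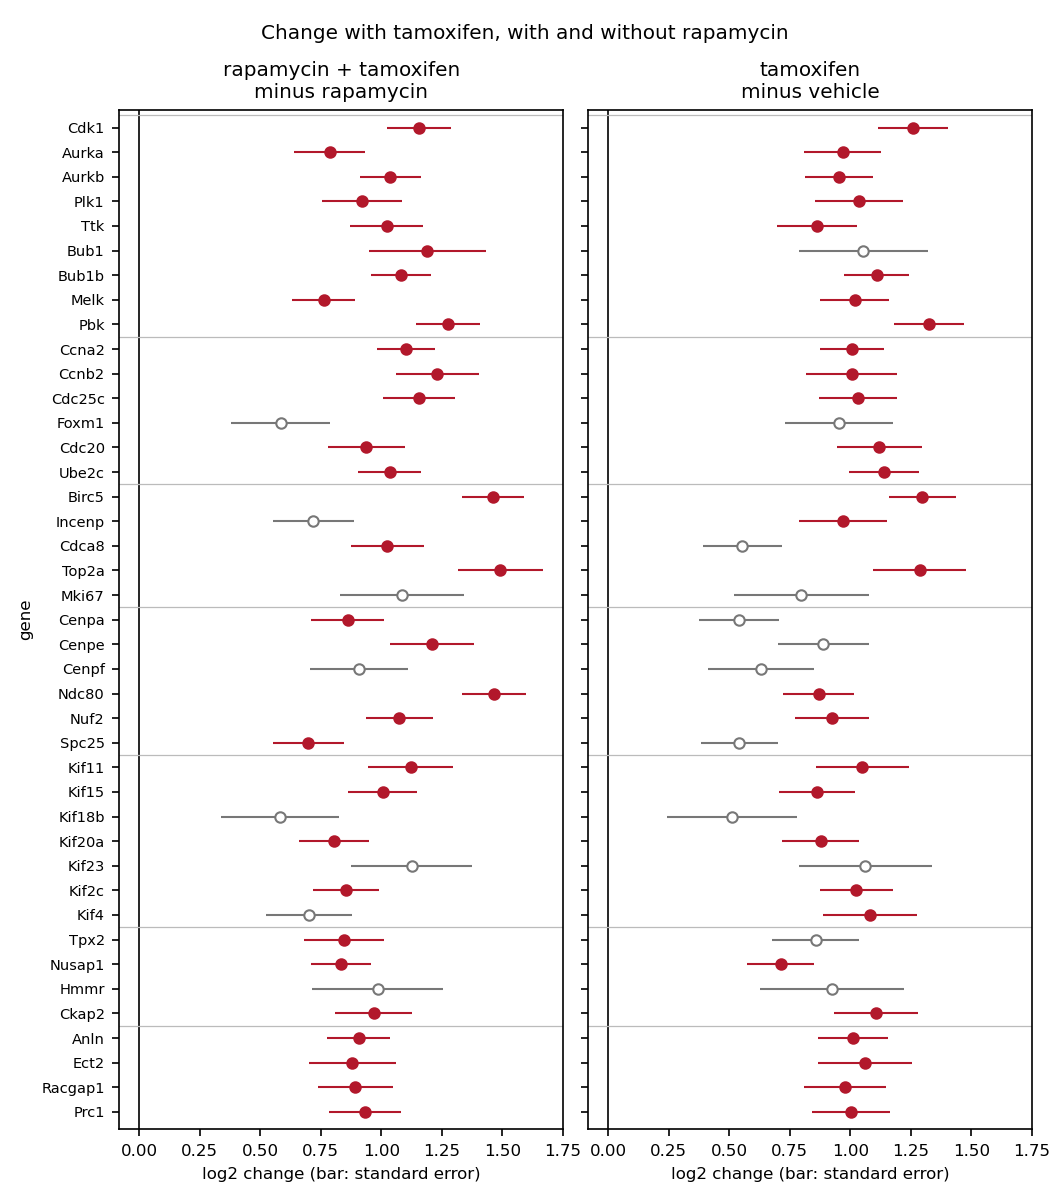
Log2 change of each member with tamoxifen in rapamycin-treated stomachs (left, combination minus rapamycin) and without rapamycin (right, tamoxifen minus vehicle), with the standard error as a bar and filled red points for genes called by limma at an adjusted p under 0.05. All 41 points lie above 0 in both panels, and 33 are filled on the left and 29 on the right.

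Among the kinases, 8 of 9 rose with tamoxifen alone (median 1.04) and 9 of 9 in the combination against rapamycin (median 1.04). The kinase gene Pbk, whose product is active in mitotic cells, read 7.90 and 7.68 in combination arrays, 8.03 and 7.97 in tamoxifen arrays, 6.55, 6.48 and 6.51 in rapamycin arrays, and 6.79 and 6.55 in vehicle arrays. Both groups given tamoxifen were high, with no overlap with the other arrays, and Pbk rose by 1.32 ± 0.14 (adjusted p = 0.00687) with tamoxifen and by 1.28 ± 0.13 (adjusted p = 0.00353) in the combination against rapamycin. Cdk1, the kinase that starts mitosis, read 7.86 and 8.12 in combination arrays, 8.56 and 8.40 in tamoxifen arrays, 6.76, 6.88 and 6.86 in rapamycin arrays, and 7.25 and 7.19 in vehicle arrays. Its tamoxifen and combination arrays again lay above all others, with rises of 1.26 ± 0.14 (adjusted p = 0.00794) and 1.16 ± 0.13 (adjusted p = 0.00434). Bub1b, which encodes the checkpoint protein BubR1, read 6.81 and 6.67 in combination arrays, 7.29 and 7.29 in tamoxifen arrays, 5.60, 5.78 and 5.59 in rapamycin arrays, and 6.13 and 6.22 in vehicle arrays. It rose by 1.11 ± 0.14 (adjusted p = 0.00936) and 1.08 ± 0.12 (adjusted p = 0.00434), and the replicate arrays of each group were close.

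Melk, a kinase gene of proliferating cells, read 7.50 and 7.46 in combination arrays, 7.998 and 8.14 in tamoxifen arrays, 6.70, 6.86 and 6.60 in rapamycin arrays, and 7.11 and 6.99 in vehicle arrays. Its rises were 1.02 ± 0.14 (adjusted p = 0.0143) with tamoxifen alone and 0.76 ± 0.13 (adjusted p = 0.021) under rapamycin. Aurkb, the catalytic kinase of the chromosomal passenger complex, read 8.17 and 8.18 in combination arrays, 8.48 and 8.35 in tamoxifen arrays, 7.16, 7.02 and 7.23 in rapamycin arrays, and 7.55 and 7.37 in vehicle arrays. It rose by 0.95 ± 0.14 (adjusted p = 0.0169) and by 1.04 ± 0.13 (adjusted p = 0.00539), with nearly equal levels in the 2 combination arrays. Bub1, a kinase of the kinetochore checkpoint, had the largest p of the kinases for tamoxifen against vehicle and read 6.87 and 6.48 in combination arrays, 6.84 and 7.48 in tamoxifen arrays, 5.51, 5.71 and 5.23 in rapamycin arrays, and 5.89 and 6.33 in vehicle arrays. Its second arrays of the tamoxifen and vehicle groups were higher than the first by 0.64 and 0.44, and its change of 1.05 ± 0.27 (adjusted p = 0.105) was not called, while it rose by 1.19 ± 0.24 (adjusted p = 0.0411) under rapamycin. Aurka, which acts at spindle poles, Plk1, the Polo kinase, and Ttk, the checkpoint kinase Mps1, rose in both comparisons, by 0.86 to 1.04 with tamoxifen alone and by 0.79 to 1.02 under rapamycin.

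Of the cyclins and regulators, 5 of 6 rose in each comparison, with medians of 1.02 for tamoxifen against vehicle and 1.07 for the combination against rapamycin. Ube2c, the ubiquitin-conjugating enzyme of the anaphase-promoting complex, read 8.28 and 8.35 in combination arrays, 8.97 and 8.98 in tamoxifen arrays, 7.36, 7.10 and 7.39 in rapamycin arrays, and 7.86 and 7.81 in vehicle arrays. The groups did not overlap at any point of the order, and Ube2c rose by 1.14 ± 0.14 (adjusted p = 0.01) and 1.03 ± 0.13 (adjusted p = 0.00585). The S and G2 cyclin gene Ccna2 read 8.79 and 8.84 in combination arrays, 9.35 and 9.45 in tamoxifen arrays, 7.79, 7.67 and 7.69 in rapamycin arrays, and 8.48 and 8.30 in vehicle arrays. It rose by 1.01 ± 0.13 (adjusted p = 0.0116) and 1.10 ± 0.12 (adjusted p = 0.00402), and combination arrays stood between tamoxifen and vehicle arrays. Cdc20, the activator of the anaphase-promoting complex, read 8.12 and 8.01 in combination arrays, 8.79 and 8.64 in tamoxifen arrays, 7.23, 6.99 and 7.18 in rapamycin arrays, and 7.81 and 7.37 in vehicle arrays. It rose by 1.12 ± 0.17 (adjusted p = 0.0212) and 0.94 ± 0.16 (adjusted p = 0.0209), with a wider gap between the vehicle arrays than within the other groups.

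Cdc25c, the phosphatase that activates Cdk1, read 5.64 and 5.89 in combination arrays, 6.24 and 6.36 in tamoxifen arrays, 4.67, 4.41 and 4.74 in rapamycin arrays, and 5.29 and 5.25 in vehicle arrays. It rose by 1.03 ± 0.16 (adjusted p = 0.0212) and 1.16 ± 0.15 (adjusted p = 0.00592). Ccnb2, a B-type cyclin that binds Cdk1, read 8.35 and 8.46 in combination arrays, 8.80 and 8.57 in tamoxifen arrays, 7.12, 7.24 and 7.15 in rapamycin arrays, and 7.95 and 7.41 in vehicle arrays. Its first vehicle array was higher than the second by 0.54, and it rose by 1.01 ± 0.19 (adjusted p = 0.0367) and 1.23 ± 0.17 (adjusted p = 0.00838). Foxm1, a transcription factor that drives late cell cycle genes, read 7.08 and 7.12 in combination arrays, 7.61 and 7.22 in tamoxifen arrays, 6.59, 6.50 and 6.45 in rapamycin arrays, and 6.80 and 6.13 in vehicle arrays. Its vehicle arrays lay on either side of the rapamycin arrays, and neither its change of 0.95 ± 0.22 (adjusted p = 0.0834) with tamoxifen nor that of 0.58 ± 0.20 (adjusted p = 0.228) under rapamycin was called.

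The genes of chromosomes and the passenger complex had 3 of 5 called in each comparison. Birc5, which encodes survivin, the passenger complex subunit that docks it on chromosomes, read 6.41 and 6.33 in combination arrays, 6.75 and 6.91 in tamoxifen arrays, 4.92, 4.97 and 4.83 in rapamycin arrays, and 5.44 and 5.62 in vehicle arrays. All groups were apart, and Birc5 rose by 1.30 ± 0.14 (adjusted p = 0.0065) with tamoxifen and by 1.46 ± 0.13 (adjusted p = 0.00153) under rapamycin. Top2a, the topoisomerase that untangles sister chromosomes, read 8.48 and 8.25 in combination arrays, 8.79 and 9.21 in tamoxifen arrays, 7.05, 6.73 and 6.84 in rapamycin arrays, and 7.58 and 7.85 in vehicle arrays. It rose by 1.29 ± 0.19 (adjusted p = 0.0185) and 1.49 ± 0.18 (adjusted p = 0.00473), the second being the largest change of any member in that comparison. Incenp, the scaffold of the passenger complex, read 7.01 and 6.83 in combination arrays, 7.49 and 7.94 in tamoxifen arrays, 6.25, 6.11 and 6.23 in rapamycin arrays, and 6.61 and 6.88 in vehicle arrays. It rose by 0.97 ± 0.18 (adjusted p = 0.0371) with tamoxifen, while its change of 0.72 ± 0.17 (adjusted p = 0.0664) under rapamycin was not called.

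Cdca8, which encodes the passenger subunit borealin, read 6.98 and 6.86 in combination arrays, 7.13 and 6.77 in tamoxifen arrays, 6.01, 5.75 and 5.93 in rapamycin arrays, and 6.46 and 6.34 in vehicle arrays. Its lower tamoxifen array lay below both combination arrays, and it changed by 0.55 ± 0.16 (adjusted p = 0.183) without a call and rose by 1.02 ± 0.15 (adjusted p = 0.0104) under rapamycin. Mki67, the gene of the proliferation marker Ki-67, which coats mitotic chromosomes, read 9.48 and 9.16 in combination arrays, 9.81 and 10.46 in tamoxifen arrays, 8.37, 8.27 and 8.06 in rapamycin arrays, and 8.98 and 9.70 in vehicle arrays. Vehicle array 2 stood above the combination arrays and vehicle array 1 below them, tamoxifen arrays were highest, and its changes of 0.80 ± 0.28 (adjusted p = 0.291) and 1.08 ± 0.26 (adjusted p = 0.0712) were not called.

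Kinetochore and centromere genes had the smallest share of calls with tamoxifen alone, 2 of 6 (median 0.75), and 5 of 6 were called in the combination against rapamycin (median 0.99). Ndc80, a subunit of the NDC80 complex that grips microtubules, read 7.47 and 7.51 in combination arrays, 7.66 and 7.52 in tamoxifen arrays, 6.19, 5.90 and 5.98 in rapamycin arrays, and 6.78 and 6.66 in vehicle arrays. Combination arrays were nearly as high as tamoxifen arrays, and Ndc80 rose by 0.87 ± 0.15 (adjusted p = 0.0262) with tamoxifen and by 1.47 ± 0.13 (adjusted p = 0.00211) under rapamycin. Nuf2, its partner in that complex, read 7.58 and 7.27 in combination arrays, 7.89 and 7.91 in tamoxifen arrays, 6.48, 6.23 and 6.35 in rapamycin arrays, and 7.01 and 6.95 in vehicle arrays. It rose by 0.93 ± 0.15 (adjusted p = 0.0245) and 1.07 ± 0.14 (adjusted p = 0.0065). Spc25, another subunit of that complex, changed by 0.54 ± 0.16 (adjusted p = 0.181), which was not called, and rose by 0.70 ± 0.15 (adjusted p = 0.0462) under rapamycin.

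Cenpe, a kinesin of the kinetochore, read 7.44 and 7.06 in combination arrays, 7.74 and 8.01 in tamoxifen arrays, 6.06, 6.11 and 5.95 in rapamycin arrays, and 6.80 and 7.17 in vehicle arrays. It changed by 0.89 ± 0.19 (adjusted p = 0.0598), just short of a call, and rose by 1.21 ± 0.17 (adjusted p = 0.00931) under rapamycin. Cenpa, the histone variant that marks centromeres, read 7.21 and 7.35 in combination arrays, 7.55 and 7.86 in tamoxifen arrays, 6.45, 6.36 and 6.46 in rapamycin arrays, and 7.02 and 7.32 in vehicle arrays. Vehicle array 2 lay between the combination arrays, and Cenpa changed by 0.54 ± 0.16 (adjusted p = 0.197) without a call and rose by 0.86 ± 0.15 (adjusted p = 0.0223). Cenpf, an outer kinetochore protein of late cell cycle, read 6.44 and 6.26 in combination arrays, 6.69 and 7.06 in tamoxifen arrays, 5.51, 5.36 and 5.47 in rapamycin arrays, and 5.93 and 6.57 in vehicle arrays. Vehicle array 2 was above both combination arrays, and neither change, 0.63 ± 0.22 (adjusted p = 0.29) nor 0.91 ± 0.20 (adjusted p = 0.0569), was called.

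Of the kinesins, 5 of 7 rose with tamoxifen alone (median 1.02) and 4 of 7 in the combination against rapamycin (median 0.85). Kif2c, which takes microtubules apart at centromeres, read 6.80 and 6.99 in combination arrays, 7.56 and 7.53 in tamoxifen arrays, 6.16, 6.04 and 5.92 in rapamycin arrays, and 6.41 and 6.63 in vehicle arrays. It rose by 1.02 ± 0.15 (adjusted p = 0.0169) and 0.85 ± 0.14 (adjusted p = 0.0154), and every group was apart. Kif4, a chromosome-bound motor of the central spindle, read 6.45 and 6.05 in combination arrays, 6.75 and 7.14 in tamoxifen arrays, 5.70, 5.49 and 5.48 in rapamycin arrays, and 5.77 and 5.96 in vehicle arrays. It rose by 1.08 ± 0.19 (adjusted p = 0.0313) with tamoxifen, and its change of 0.70 ± 0.18 (adjusted p = 0.0922) under rapamycin was not called. Kif20a, a motor that carries the passenger complex to the midzone, read 7.48 and 7.31 in combination arrays, 7.97 and 8.34 in tamoxifen arrays, 6.67, 6.59 and 6.52 in rapamycin arrays, and 7.24 and 7.32 in vehicle arrays. Its combination arrays were close to the vehicle arrays, and it rose by 0.88 ± 0.16 (adjusted p = 0.0332) and 0.80 ± 0.15 (adjusted p = 0.026).

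Kif15, a spindle motor that acts beside Kif11, read 6.31 and 6.17 in combination arrays, 6.68 and 6.997 in tamoxifen arrays, 5.31, 5.14 and 5.26 in rapamycin arrays, and 5.89 and 6.06 in vehicle arrays. It rose by 0.86 ± 0.16 (adjusted p = 0.0334) and 1.01 ± 0.14 (adjusted p = 0.00924). Kif11, the motor that pushes spindle poles apart, read 7.86 and 7.77 in combination arrays, 8.24 and 8.63 in tamoxifen arrays, 6.91, 6.65 and 6.52 in rapamycin arrays, and 7.24 and 7.54 in vehicle arrays. It rose by 1.05 ± 0.19 (adjusted p = 0.0348) and 1.12 ± 0.18 (adjusted p = 0.0143), with tamoxifen arrays above all others. Kif18b, which trims microtubule ends, read 6.94 and 7.19 in combination arrays, 7.40 and 7.05 in tamoxifen arrays, 6.57, 6.54 and 6.34 in rapamycin arrays, and 7.15 and 6.27 in vehicle arrays. Its vehicle arrays differed by 0.87, the widest gap within a group of 2 over all members, and its changes of 0.51 ± 0.27 (adjusted p = 0.592) and 0.58 ± 0.24 (adjusted p = 0.333) were not called. Kif23, a subunit of the centralspindlin complex, changed by 1.06 ± 0.28 (adjusted p = 0.115) and 1.12 ± 0.25 (adjusted p = 0.059), neither called, with tamoxifen arrays that differed by 0.70.

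Among the 4 spindle genes, 2 rose with tamoxifen alone and 3 in the combination against rapamycin. Ckap2, a microtubule-stabilizing spindle protein, read 6.95 and 6.998 in combination arrays, 7.41 and 7.69 in tamoxifen arrays, 6.16, 5.88 and 5.98 in rapamycin arrays, and 6.27 and 6.62 in vehicle arrays. It rose by 1.10 ± 0.17 (adjusted p = 0.0214) and 0.97 ± 0.16 (adjusted p = 0.0173). Nusap1, which bundles microtubules near chromosomes, read 7.91 and 7.91 in combination arrays, 8.06 and 8.28 in tamoxifen arrays, 7.12, 7.03 and 7.07 in rapamycin arrays, and 7.52 and 7.39 in vehicle arrays. It had narrow groups and rose by 0.71 ± 0.14 (adjusted p = 0.0422) and 0.83 ± 0.12 (adjusted p = 0.0114). Hmmr, a hyaluronan receptor that also holds spindle poles, read 6.43 and 6.07 in combination arrays, 6.82 and 7.52 in tamoxifen arrays, 5.56, 5.02 and 5.22 in rapamycin arrays, and 5.92 and 6.57 in vehicle arrays. Vehicle array 2 exceeded both combination arrays, tamoxifen array 2 was the highest of all, and its changes of 0.92 ± 0.30 (adjusted p = 0.228) and 0.98 ± 0.27 (adjusted p = 0.12) were not called. Tpx2, the activator of Aurora A on the spindle, changed by 0.86 ± 0.18 (adjusted p = 0.0594) without a call and rose by 0.85 ± 0.17 (adjusted p = 0.0347).

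All 4 cytokinesis genes rose in both comparisons, with medians of 1.01 and 0.90. Anln, which encodes anillin, a scaffold of the contractile ring, read 7.97 and 7.78 in combination arrays, 8.34 and 8.23 in tamoxifen arrays, 7.11, 6.90 and 6.91 in rapamycin arrays, and 7.32 and 7.23 in vehicle arrays. It rose by 1.01 ± 0.14 (adjusted p = 0.0149) and 0.91 ± 0.13 (adjusted p = 0.00988). Prc1, which crosslinks microtubules of the central spindle, read 7.72 and 7.58 in combination arrays, 8.22 and 8.54 in tamoxifen arrays, 6.86, 6.61 and 6.69 in rapamycin arrays, and 7.45 and 7.29 in vehicle arrays. Its tamoxifen arrays were above all others, combination arrays were only slightly above vehicle arrays, and it rose by 1.003 ± 0.16 (adjusted p = 0.0231) and 0.93 ± 0.15 (adjusted p = 0.0149). Racgap1, the other subunit of centralspindlin, read 7.91 and 7.78 in combination arrays, 8.25 and 8.20 in tamoxifen arrays, 7.17, 6.87 and 6.81 in rapamycin arrays, and 7.39 and 7.10 in vehicle arrays. The rises were 0.98 ± 0.17 (adjusted p = 0.0288) and 0.89 ± 0.15 (adjusted p = 0.0219). Ect2, the exchange factor that activates RhoA at the division plane, read 9.11 and 8.83 in combination arrays, 9.73 and 9.76 in tamoxifen arrays, 8.25, 8.15 and 7.88 in rapamycin arrays, and 8.91 and 8.46 in vehicle arrays. The lower combination array lay below the higher vehicle array, and Ect2 rose by 1.06 ± 0.20 (adjusted p = 0.0357) and 0.88 ± 0.18 (adjusted p = 0.0411).

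With rapamycin alone, division genes were lower than with vehicle, but no gene was called. The median log2 change over the members was -0.52, against -0.02 over all genes, 40 of 41 changes were below 0, and 38 genes had all 3 rapamycin arrays below both vehicle arrays, against 14.3% of all genes. By limma 0 members were called as falling, at a background of 0.0406%, while 34 were lower at an unadjusted p under 0.05, as were 4.6% of all genes. The changes furthest below 0 were those of Mki67 at -1.10 ± 0.26 (adjusted p = 0.316), Hmmr at -0.98 ± 0.27 (adjusted p = 0.403), Cenpe at -0.95 ± 0.17 (adjusted p = 0.196) and Top2a at -0.84 ± 0.18 (adjusted p = 0.26). The smallest adjusted p was that of Ccna2, at -0.68 ± 0.12 (adjusted p = 0.191). Foxm1, at 0.05 ± 0.20 (adjusted p = 0.938), was the 1 member with a change above 0.

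The roles differed in their medians for rapamycin against vehicle. Kinetochore and centromere genes had a median of -0.72, kinesins -0.69, and genes of chromosomes and the passenger complex -0.62. Cyclins and regulators had -0.53, spindle and cytokinesis genes -0.45 each, and kinases -0.37. Rapamycin arrays lay wholly below vehicle arrays in every member but Foxm1 (cyclins and regulators), Kif18b (kinesins) and Racgap1 (cytokinesis). The differences between roles were not tested.

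In tamoxifen-treated mice, the combination against tamoxifen also gave lower values without a call. All 41 changes were below 0 (median -0.53), 37 genes had both combination arrays below both tamoxifen arrays, against 20.3% of all genes, and 29 were lower at an unadjusted p under 0.05, as were 3.31% of all genes. By limma 0 members were called as falling, at a background of 0%. The furthest below 0 were Hmmr at -0.92 ± 0.30 (adjusted p = 0.814), Mki67 at -0.82 ± 0.28 (adjusted p = 0.814), Incenp at -0.80 ± 0.18 (adjusted p = 0.796) and Ect2 at -0.77 ± 0.20 (adjusted p = 0.814), and the nearest to 0 were Ndc80 at -0.10 ± 0.15 (adjusted p = 0.878) and Cdca8 at -0.03 ± 0.16 (adjusted p = 0.969).

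Rapamycin averaged over tamoxifen had 41 changes below 0, with a median of -0.54, and 38 genes lower at an unadjusted p under 0.05, as were 7.42% of all genes. By limma again 0 members were called as falling, at a background of 0.018%. The smallest adjusted p values were those of Ccna2, at -0.63 ± 0.09 (adjusted p = 0.0718), and Kif20a, at -0.73 ± 0.11 (adjusted p = 0.0807). This count depended on the setting: 8 genes were called when dim probe sets were left out, 4 with a trend and robust fit, 4 without tamoxifen array 1, and 1 after quantile normalization.

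In the combination against vehicle most division genes read higher, and few were called. The median log2 change was 0.45, and 40 of 41 changes were above 0. Called as rising were 4 genes, at a background of 0.41%: Pbk at 1.12 ± 0.14 (adjusted p = 0.0123), Birc5 at 0.84 ± 0.14 (adjusted p = 0.0311), Cdk1 at 0.77 ± 0.14 (adjusted p = 0.0471) and Ndc80 at 0.77 ± 0.15 (adjusted p = 0.0492). Combination arrays lay wholly above vehicle arrays in 31 genes, against 19.3% of all genes, and 24 genes were higher at an unadjusted p under 0.05, as were 6.31% of all genes. Genes with almost no difference were Mki67 at -0.02 ± 0.28 (adjusted p = 0.983) and Hmmr at 0.004 ± 0.30 (adjusted p = 0.997).

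These 4 calls were not stable. They became 1 without vehicle array 1, 0 without vehicle array 2, 0 without either combination array, 1 without any 1 of the 3 rapamycin arrays, and 0 with the squamous marker mean as a covariate.

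The change with tamoxifen was set against that in rapamycin-treated mice by the interaction term, the combination minus rapamycin change less the tamoxifen minus vehicle change. By limma 0 members were called, at a background of 0% in either direction, the median was 0.06 and 22 of 41 terms were above 0. Ndc80 alone of the members had an unadjusted p under 0.05, a share near the 2.83% of all genes that had one. Its term was 0.60 ± 0.20 (unadjusted p = 0.015, adjusted p = 1.0), and no difference is read from it. All 6 kinetochore and centromere genes had terms above 0 (median 0.30), and all 4 cytokinesis genes had terms below 0 (median -0.09). These roles were picked after their values were seen, and differences between roles were not tested. With standard errors of 0.18 to 0.40 per gene, small differences were not detectable.

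Other genes of division and of the preceding phase were read from lists chosen by function. Of 62 other mitosis genes, such as condensin, kinetochore and centriole genes, 24 rose with tamoxifen (median 0.80) and 25 in the combination against rapamycin (median 0.77). The shares of all genes called as rising were 0.933% and 1.13%. Examples were Cep55, a protein of the final cut between daughters, at 1.40 ± 0.19 (adjusted p = 0.0117) with tamoxifen, Mad2l1, a checkpoint protein, at 1.16 ± 0.14 (adjusted p = 0.01), Depdc1a at 1.52 ± 0.15 (adjusted p = 0.0035) and the Cdk subunit gene Cks2 at 1.32 ± 0.13 (adjusted p = 0.00338) in the combination against rapamycin. For rapamycin against vehicle their median was -0.37, and 0 were called. At an unadjusted p under 0.05, 33 were lower, as were 4.6% of all genes.

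DNA replication genes also rose with tamoxifen, 18 of 26 (median 0.91) with tamoxifen alone, 15 (median 0.76) in the combination against rapamycin and 8 (median 0.70) in the combination against vehicle. The shares of all genes called as rising were 0.933%, 1.13% and 0.41% in the same order. Rrm2, the ribonucleotide reductase subunit that makes deoxynucleotides, read 7.29 and 7.19 in combination arrays, 7.97 and 7.90 in tamoxifen arrays, 6.32, 5.92 and 6.25 in rapamycin arrays, and 6.33 and 6.43 in vehicle arrays. It rose by 1.55 ± 0.16 (adjusted p = 0.0065) with tamoxifen and 1.07 ± 0.15 (adjusted p = 0.00793) under rapamycin. Mcm4, a subunit of the replicative helicase, read 8.50 and 8.26 in combination arrays, 8.50 and 8.61 in tamoxifen arrays, 7.28, 7.37 and 7.18 in rapamycin arrays, and 7.28 and 7.37 in vehicle arrays. It rose by 1.23 ± 0.14 (adjusted p = 0.00862) and 1.10 ± 0.13 (adjusted p = 0.0049), and its rapamycin and vehicle arrays were level.

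Between rapamycin and vehicle the replication list had a median of -0.10 with 0 of 26 genes at an unadjusted p under 0.05, where the division genes had -0.52 and 34 of 41. For the combination against tamoxifen the medians were -0.15 for replication genes, 4 of 26 of them lower at an unadjusted p under 0.05, and -0.53 for division genes, 29 of 41 of them lower at it. The difference between the lists was not tested.

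**Figure D4:**
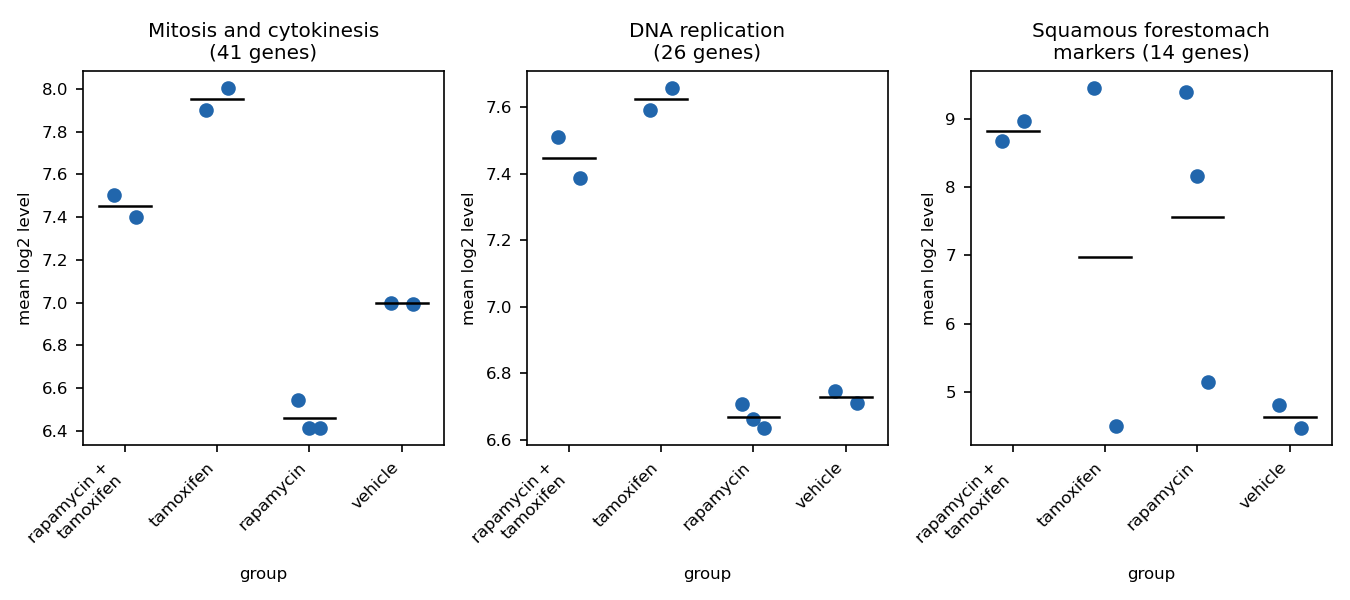
Mean log2 level per whole-stomach array (points) of the 41 mitosis and cytokinesis genes, 26 DNA replication genes and 14 squamous forestomach markers, by group, with the group mean as a line and axes that do not start at 0. Rapamycin arrays lie below vehicle arrays for the division genes (6.41 to 6.55 against 6.995 and 6.997), nearly level with them for replication genes, and squamous markers differ widely between arrays of 1 group.

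Genes that control late cell cycle transcription were read from a list of 15. Of them, Tfdp1, the partner of E2F factors, rose by 0.83 ± 0.14 (adjusted p = 0.0241) with tamoxifen, 0.80 ± 0.13 (adjusted p = 0.0142) in the combination against rapamycin and 0.77 ± 0.14 (adjusted p = 0.0386) in the combination against vehicle. Rbl1, which encodes the DREAM subunit p107, rose by 0.72 ± 0.14 (adjusted p = 0.0311) in the combination against rapamycin. With tamoxifen averaged over rapamycin 5 of the 15 rose (Tfdp1, Rbl1, E2f8, Lin9 and Mybl2) and 1 fell, Rbl2, which encodes the related pocket protein p130. Of 16 CDK inhibitor and G1 genes, the Cdk inhibitor gene Cdkn1c fell by 1.32 ± 0.22 (adjusted p = 0.0266) with tamoxifen, and another, Cdkn2b, fell by 1.24 ± 0.22 (adjusted p = 0.0257) in the combination against rapamycin. Ccnd1, which encodes cyclin D1, rose by 0.80 ± 0.15 (adjusted p = 0.0484) in the combination against vehicle. In the averaged contrast 3 of the 16 rose (Ccnd1 and the kinase genes Cdk4 and Cdk6) and 2 fell (Cdkn1c and Cdkn2b). Of all genes 3.24% were called as rising in that contrast.

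Other tissue content differed between arrays beside these changes. The mean of 14 squamous forestomach markers (15 listed, Krt5 without a probe set) was 8.68 and 8.98 in combination arrays, 9.45 and 4.50 in tamoxifen arrays, 9.40, 8.16 and 5.14 in rapamycin arrays and 4.80 and 4.47 in vehicle arrays. From vehicle array 2 to tamoxifen array 2, both low in squamous markers, the median difference of the division genes was 1.08. From rapamycin array 1 to combination array 1, both high, it was 0.92. In the other pairs of equal number it was 0.89 (tamoxifen array 1 minus vehicle array 1) and 0.98 (combination array 2 minus rapamycin array 2). Each pair is 1 array against 1, and these pairs do not test the part of squamous content. Combination arrays were both high and vehicle arrays both low in these markers. In the combination against vehicle, squamous content and the drugs therefore cannot be told apart. With the squamous mean as a covariate, 15 members were called for tamoxifen against vehicle, and the median log2 change was 0.951, against 1.003 without the covariate.

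Parietal markers averaged 9.09 and 9.31 in combination arrays, 9.06 and 9.58 in tamoxifen arrays, 10.47 to 10.73 in rapamycin arrays, and 10.43 and 10.47 in vehicle arrays, and 3 of 12 fell with tamoxifen alone and 8 of 12 in the combination against rapamycin. Chief cell markers fell in 4 of 5 and 3 of 5 cases in those comparisons. Of 5 macrophage markers 1 rose in each, and not the same gene. Lyz2 rose by 1.33 ± 0.27 (adjusted p = 0.0499) with tamoxifen alone, and Cd14 by 0.89 ± 0.17 (adjusted p = 0.0327) in the combination against rapamycin. In the latter Lyz2 and Cd68 were above 0 and Csf1r and Adgre1 below 0, none called. The macrophage means were 7.04 and 7.32 in combination arrays, 7.28 and 7.92 in tamoxifen arrays, 6.74 to 6.89 in rapamycin arrays and 6.82 and 6.93 in vehicle arrays. T cell markers (6 of 7 measured) averaged 4.35 to 4.73 and B cell markers (4 of 5 measured) 3.85 to 4.20 over the 9 arrays, and 0 of either rose in these comparisons.

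Mast cell markers (5 measured) moved with both drugs and averaged 6.92 and 7.04 in combination arrays, 6.94 and 7.56 in tamoxifen arrays, 6.59 to 6.87 in rapamycin arrays, and 8.67 and 9.22 in vehicle arrays. Every drug-treated array was below both vehicle arrays. With rapamycin against vehicle 3 of the 5 fell, with log2 changes of -4.46 ± 0.39 (adjusted p = 0.00758) for the mast cell protease gene Mcpt1, -3.57 ± 0.41 (adjusted p = 0.0316) for Mcpt2 and -1.37 ± 0.14 (adjusted p = 0.018) for the tryptase gene Tpsb2. With tamoxifen alone 2 fell, Mcpt1 and the receptor gene Kit, and in the combination against rapamycin Kit fell. The mean of the 5 markers was nevertheless higher in both combination arrays than in any rapamycin array. For rapamycin against vehicle Kit was above 0, at 0.25 ± 0.18 (adjusted p = 0.649), and the other 4 were below 0. Kit read 8.09 in the parietal and 7.71 in the remaining fraction, while the other 4 were at least 2 log2 units lower in the parietal fraction. Whether the fall of Kit came from mast cells was not tested. Adipose markers (4 of 5 measured) averaged 7.31 and 6.48 in combination arrays, 6.93 and 5.72 in tamoxifen arrays, 7.22 to 8.15 in rapamycin arrays, and 6.12 and 5.93 in vehicle arrays, and 0 were called in any comparison, with Adipoq at 2.54 ± 0.68 (adjusted p = 0.397) and Retn at 2.65 ± 0.63 (adjusted p = 0.328) for rapamycin against vehicle. Of 6 gastric progenitor markers, averaging 7.45 to 7.90 over the 9 arrays, Tnfrsf19 alone was called, and it rose by 1.09 ± 0.16 (adjusted p = 0.0169) with tamoxifen. The part of these tissue markers in the changes of the division genes was not tested.

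In the 2 cell fractions, division genes were lower in parietal cells than in the remaining stomach cells. The fractions had 1 array each, so there is no test and no error, and a count says only how the arrays differ. Averaged over the 41 genes, the log2 level was 3.66 in the parietal fraction and 5.19 in the remaining fraction, and 38 genes were lower in the parietal fraction, 2 higher and 1 equal. The median difference was -1.35, against 0.03 over all genes. At least 1 log2 unit lower in the parietal fraction were 26 of the 41 genes, against 6.46% of all genes, and at least 2 units lower 13, against 2.05% of all genes. All 12 parietal markers were higher in the parietal fraction (median difference 4.21), while endocrine (-5.74), mast cell (-5.03), neck mucous (-3.87), chief (-2.23) and pit mucous (-1.51) markers had medians below 0. Gastric progenitor markers did not go this way: 4 of 6 were higher in the parietal fraction (median 0.58), Olfm4 and Lrig1 by at least 1 log2 unit, while Stmn1 was lower. Erythroid (0.63), endothelial (0.37), smooth muscle (0.14) and T cell (0.10) markers also had medians above 0.

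The largest differences were in genes of several roles, with Ube2c and Ccnb2, of the cyclins and regulators, furthest apart. Ube2c read 3.58 in the parietal and 8.03 in the remaining fraction (difference -4.46), and Ccnb2 read 4.31 in the parietal and 7.86 in the remaining fraction (-3.55). Top2a read 2.74 in the parietal and 6.27 in the remaining fraction (-3.53). Nuf2 read 2.85 in the parietal and 5.95 in the remaining fraction (-3.10), and Birc5 2.29 in the parietal and 5.26 in the remaining fraction (-2.98). By role, the median difference was -2.72 for cyclins and regulators, -2.05 for chromosomes and the passenger complex, -1.88 for cytokinesis, -1.84 for the spindle, -1.08 for kinases, -0.99 for the kinetochore and centromere and -0.57 for kinesins. Only 13 of the 41 members read above the median of all genes in the parietal array, and 34 in the remaining array. What dim probe sets can show is unknown, so no ranking of the roles is read from these medians.

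Some members differed by less than 1 log2 unit between the fractions. Spc25 was higher in the parietal fraction (4.81, against 4.54 in the remaining cells), as was Cenpa (6.89, against 6.67). Bub1b read 3.82 in both, below the median of all genes in each array. Kif18b read 4.34 in the parietal and 4.40 in the remaining fraction, and Kif23 4.99 in the parietal and 5.24 in the remaining fraction. Cdk1 was lower in the parietal fraction, at 4.11 against 4.85 in the remaining fraction. Smooth muscle markers averaged 3.999 in the parietal and 3.83 in the remaining fraction and fibroblast markers 3.17 in the parietal and 3.45 in the remaining fraction.

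**Figure D5:**
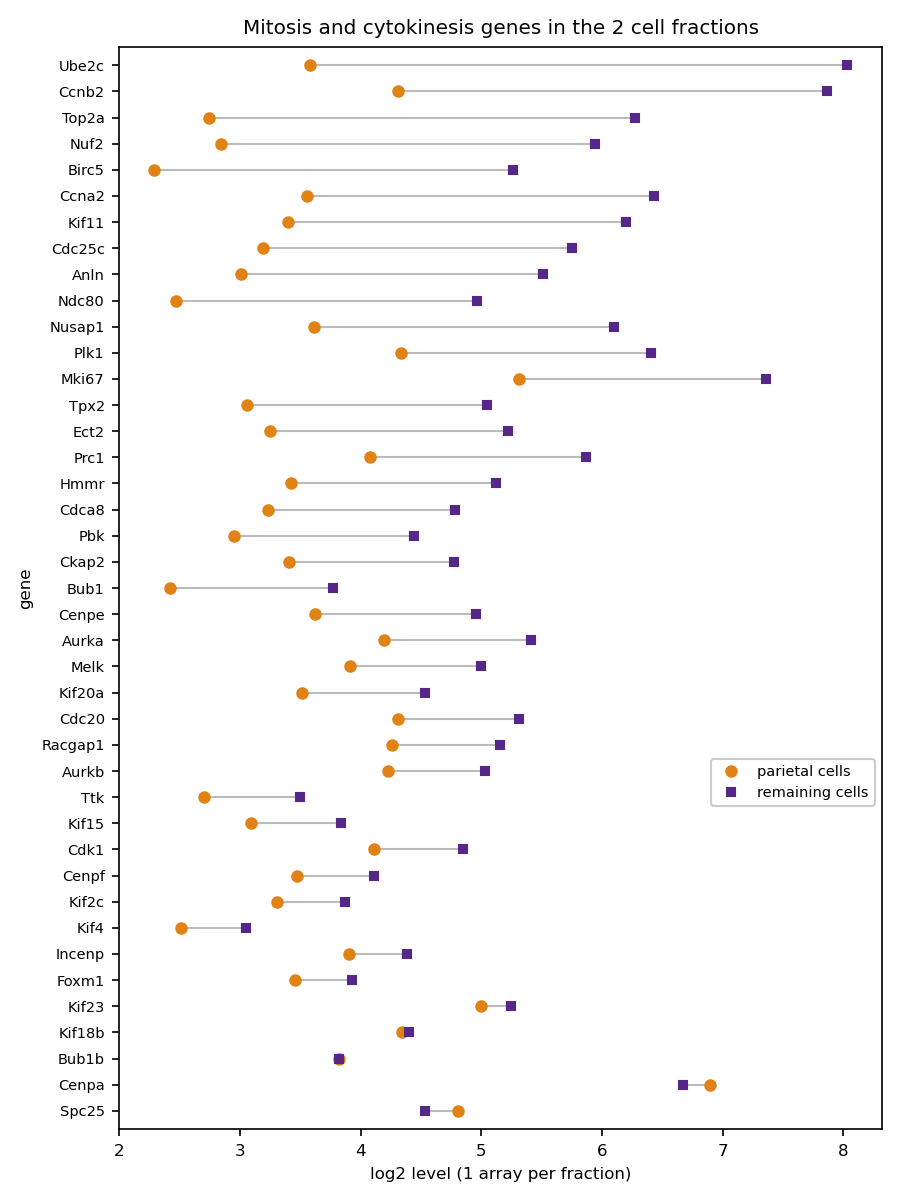
Log2 level of each member in the isolated parietal cells (circles) and in the remaining stomach cells (squares), 1 array each, sorted by the difference. Of the 41 genes 38 are lower in the parietal cells, with Ube2c furthest apart and Spc25 and Cenpa the other way round.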

How the data were processed

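Total RNA of 9 whole-stomach samples and 2 stomach cell fractions was amplified, labelled with biotin and hybridised to Affymetrix arrays, per the labels' protocols. The authors deposited log2 expression values per probe set, made with RMA in Partek per the submitters' processing notes; their versions and settings, and the array's genome build, are not stated there. Of 41345 probe sets, 23521 named 1 gene symbol in the platform table, 1814 named several and were left out, and 16010 were not listed with a gene. With the brightest probe set of each gene (by its average on whole-stomach arrays) 22180 genes were kept, dim ones included. Symbols of all 41 measured members were found in the RefSeq table of GRCm38.p6.

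The log2 values of the 9 whole-stomach arrays were fitted with limma 3.58.1 (R 4.3.3), with 1 mean per group and a shared spread (5 residual degrees of freedom, prior 3.86). Benjamini-Hochberg adjustment ran over all genes, and a gene was called at an adjusted p under 0.05. The fraction arrays have no replicates and were described without a test. The number of arrays limits the precision.

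The members and the gene lists were chosen with earlier results of these data known. Members were named by role, with values in every array for at most 4 called members of smallest p per role in a comparison and for 1 further member of largest p; of the other lists up to 4 called genes of largest change were named. Genes named in the text beyond this rule (such as those with changes furthest from 0 or nearest to 0) were chosen after their values were seen. Alternatives tried were a second quantile normalization, centring on medians, leaving out dim probe sets, other handling of several probe sets per gene, a trend and robust fit, only the groups compared, the squamous marker mean as a covariate, the replicate number as a block, and leaving out each array.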

Additional observations from a re-analysis of the deposited data

How the results depend on the processing

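Of 5077 recomputed member changes, 4594 kept their direction and their side of the threshold, 400 lost and 61 gained a call in the same direction, and 22 turned in direction. For tamoxifen against vehicle the 29 calls became 0 with only the groups compared, 15 with the squamous covariate and 13 with the replicate block, and 8 to 18 with 1 array left out; the median of 1.003 was 0.918 after quantile normalization. For the combination against rapamycin the 33 calls became 17 with the replicate block and 3 to 37 with 1 array left out (median 0.916 to 1.044). For the combination against vehicle the 4 calls became 2 after quantile normalization, 1 after median centring, 7 with dim probe sets left out, 1 with only the groups compared, 0 with the squamous covariate, 1 with the replicate block and 0 to 4 with 1 array left out (median 0.444 to 0.526). The interaction median of 0.06 was 0.147 after quantile normalization and lay between -0.058 and 0.113 with 1 array left out. For rapamycin averaged over tamoxifen the 0 calls became 1 after quantile normalization, 8 with dim probe sets left out, 4 with a trend and robust fit and 0 to 4 with 1 array left out.

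Direction turned for Foxm1, rapamycin against vehicle (-0.0067 after quantile normalization, -0.0055 after median centring, -0.132 with the squamous covariate, and -0.286 to 0.389 with 1 array left out), and for Kif18b (-0.664 to 0.211 with 1 left out). For the combination against vehicle, Mki67 was 0.035 after quantile normalization, 0.187 with the covariate and -0.381 to 0.342 with 1 left out, and Hmmr -0.0393 after quantile normalization, -0.0517 after centring and -0.317 to 0.325 with 1 left out. With 1 array left out, the ranges there were -0.0384 to 0.267 for Cenpa, -0.216 to 0.426 for Cenpf and -0.0833 to 0.791 for Kif18b. For the combination against tamoxifen they were -0.214 to 0.149 for Cdca8, -0.396 to 0.0061 for Spc25 and -0.332 to 0.0183 for Kif18b, and for rapamycin averaged over tamoxifen -0.303 to 0.0341 for Foxm1 and -0.410 to 0.0269 for Kif18b. The causes were not tested; a group left with 1 array is assumed to vary like the others. A fit of only the groups compared does not exist for the interaction and the averaged contrasts.

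The labels do not say whether equal replicate numbers mark a shared batch or animal. Over the 41 members, the differences of array 2 from array 1 correlated at 0.757 between tamoxifen and vehicle. They correlated at -0.529 between the combination and tamoxifen, and at -0.428 between the combination and vehicle. Over all 22180 genes these correlations were 0.5605, -0.112 and -0.0514 in the same order. The signs differed between pairs of groups, so the block was left out of the main fit and tried only as an alternative. For tamoxifen against vehicle, whose differences correlated positively, the 29 calls of the main fit became 13 with the block. Whether tamoxifen and vehicle arrays of equal number shared a factor was not tested. No background signal was at hand, so what dim probe sets can show is unknown.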

Other observations

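Members differed in how far the arrays of a group of 2 stood apart, and several differed the same way in tamoxifen and vehicle stomachs. Array 2 was higher than array 1 for Hmmr (0.70 in tamoxifen and 0.64 in vehicle stomachs), Mki67 (0.64 in tamoxifen and 0.72 in vehicle stomachs), Cenpf (0.37 in tamoxifen and 0.64 in vehicle stomachs) and Bub1 (0.64 in tamoxifen and 0.44 in vehicle stomachs). It was lower for Kif18b (-0.35 in tamoxifen and -0.87 in vehicle stomachs), Foxm1 (-0.39 in tamoxifen and -0.67 in vehicle stomachs) and Plk1 (-0.19 in tamoxifen and -0.53 in vehicle stomachs). In combination stomachs the differences ran the other way for Hmmr (-0.35), Mki67 (-0.32), Bub1 (-0.39) and Kif18b (0.26). The mean over all 41 genes hid this, since vehicle arrays averaged 6.997 and 6.995. These genes were chosen after their values were seen, and the labels do not say what the replicate numbers stand for.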
